A study of Mus musculus with 35 samples.

Results

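The comparison described here set the brain tissue of mice given plain mesenchymal stromal cells (MSCs) against that of mice given phosphate-buffered saline (PBS), 3 weeks after a closed head injury. It was chosen by the group names of the samples and holds 9 of the 34 RNA-sequencing libraries with counts, 5 of MSC mice and 4 of PBS mice. All 9 mice were male C57BL/6NCrl animals, 8 to 9 weeks old at the start, and all 9 had the injury. On day 5 they received an injection into the left hippocampus of either PBS or MSCs that had been isolated from C57BL/6N mice and not transfected. Tissue around the injection site, labelled as left cortex, was taken 16 days later, which is called 3 wpi, and each library came from the tissue of 1 mouse. The cells were a single purchased lot of primary MSCs, so that no second donor lot was compared. Other groups are used for comparison. Sham mice had neither the injury nor an injection, and 2 of them belonged to the 1-week and 3 to the 3-week time point, fitted as a single group, and IL-4 MSC mice received MSCs transfected with synthetic mRNA of the cytokine IL-4. The groups at 1 wpi were treated in the same way and taken 2 days after the injection. The comparison asks what an injection of plain MSCs left in the injured tissue after more than 2 weeks.

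T lymphocytes recognise peptides that other cells show on major histocompatibility complex (MHC) molecules. CD8 T cells read class I molecules, which nearly every cell can make from a heavy chain and beta-2 microglobulin, and CD4 T cells read class II molecules, which are made mainly by antigen-presenting cells and, in the brain, by microglia when these are activated. The uninjured brain holds few lymphocytes and little MHC, and interferons and NF-kappaB signalling are known to raise both classes.

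MSC mice had 14 genes at higher levels than PBS mice at 3 wpi and 0 at lower levels (edgeR's quasi-likelihood test over 17131 genes, Benjamini-Hochberg adjusted p under 0.05). The 14 are 0.0817% of the genes tested. Of the 14, 6 belong to T cells and cytotoxic lymphocytes (Cd8a, Cd3e, Cd3g, Nkg7, Cxcr6 and Sh2d2a), 2 are the lymphocyte GTPases Gimap3 and Gimap4, 1 is the chemokine Ccl5, 1 is the immunoglobulin alpha constant gene Igha, 3 are MHC class I heavy chains (H2-D1, H2-Q6 and H2-Q7) and 1 is Cd74, the chaperone of MHC class II. In bulk tissue a higher level of such a gene cannot be told apart between more cells of a type and more RNA in each cell. In all 14 genes every MSC mouse lay above every PBS mouse, for Nkg7 only through the scaling of 1 read in each of 2 mice, against 0.899% of all genes tested. The 14 were picked by this same difference, so their lack of overlap is no separate evidence. With no adjustment 686 genes were higher at p under 0.05, 4.00% of those tested, and 295 were lower, 1.72%. The last genes inside the threshold were H2-Q6, with an adjusted p of 0.0243, and Cd74, with 0.0311. The first outside it were H2-Ab1, with 0.0548, and H2-Q4, with 0.0585.

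The calls rested on fitting all 34 libraries together, so that the 7 groups share an estimate of the spread. With only the 9 libraries of MSC and PBS mice in the fit, 12 of the 14 genes passed the filter on low counts. Cd3g and Nkg7 did not, and passed it only with other groups in the fit. In the fit of 9 libraries 0 genes passed the test in edgeR, and 389 were higher and 234 lower at an unadjusted p under 0.05. The lowest adjusted p was 0.101, that of Cd8a. DESeq2 on all 34 libraries called 28 genes higher and 0 lower.

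The total count per library was 30590935 to 35634427 in MSC mice and 30515337 to 41443920 in PBS mice, and 3 counts, taken as the lowest detectable level, are 0.0723 to 0.0993 CPM, counts scaled to the size of the library. MSC replicate 4 stood apart from the other 8 mice. It was the highest of the MSC mice in 12 of the 14 genes. It also held 104 CPM of Lcn2, an acute-phase protein of reactive astrocytes and neutrophils, where the other 4 MSC mice held 0.265 to 0.974 CPM and the PBS mice 0.193 to 7.42 CPM. Sele, the endothelial selectin that catches leukocytes on inflamed vessels, was at 3.41 CPM in MSC replicate 4, at 0 to 0.0647 CPM in the other 4 MSC mice and at 0 to 0.0990 CPM in PBS mice. The summed level of the 16 neutrophil markers was 96.8 TPM in this mouse, a unit that also allows for the length of the transcript, 16.6 to 23.6 TPM in the other MSC mice and 19.7 to 31.8 TPM in PBS mice. The part of these transcripts in the results was not tested, and values without this mouse are given for the genes that rose and for the main gene lists. Without MSC replicate 4, 9 genes passed the threshold, all 9 among the 14. Nkg7, Cd74, Sh2d2a, Cd3e and H2-Q6 did not pass without this mouse. The other 4 MSC mice lay above every PBS mouse in all 14. This had to be so, because every MSC mouse did, and it is no separate evidence. Over all genes tested it held in 1.30%.

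**Figure D1:**
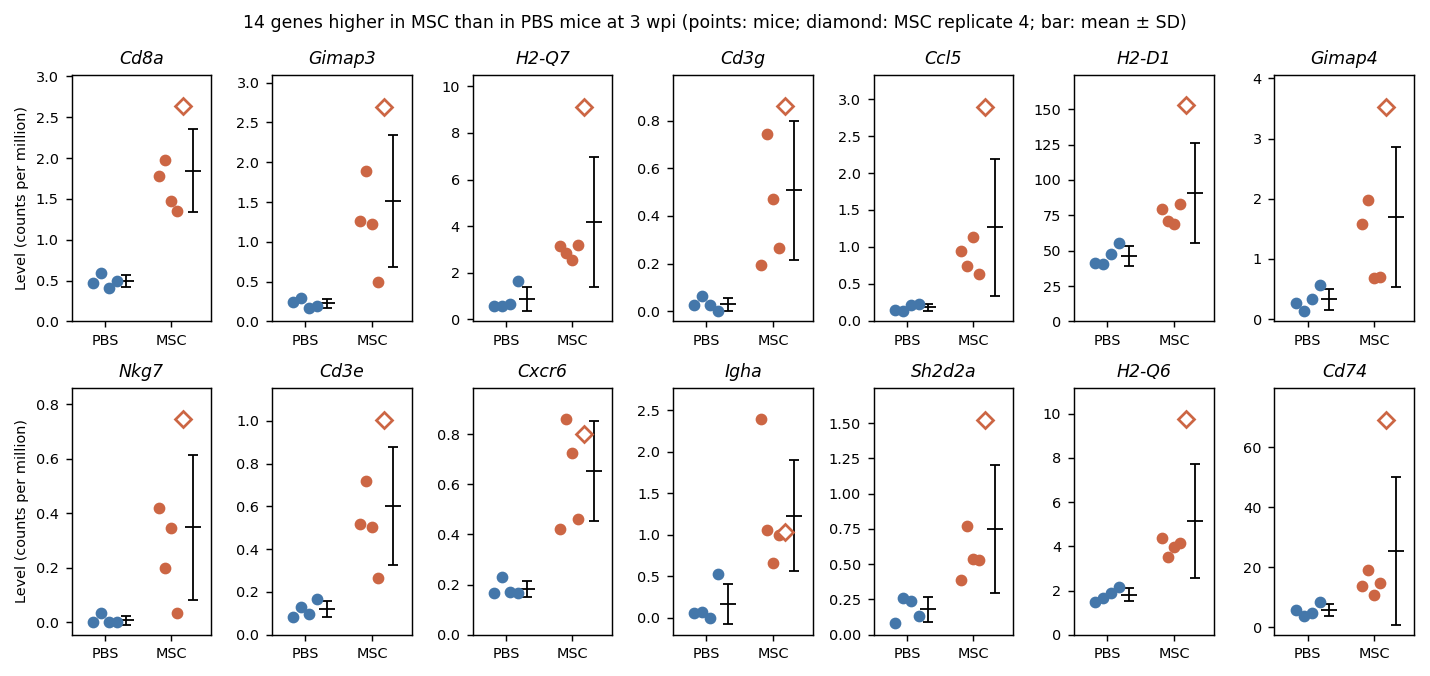
Level in CPM (vertical axes, linear) of each of the 14 genes in every PBS mouse (4, blue) and MSC mouse (5, orange) at 3 wpi, with the mean ± SD beside the points and MSC replicate 4 as an open diamond. Every orange point lies above every blue point in each panel (for Nkg7, the lowest orange and the highest blue point are 1 read each), and the diamond is the highest point in 12 of the 14 panels.

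Among the genes of the T cell receptor complex and its coreceptors, 3 rose, and Cd8a had the lowest adjusted p of all genes tested. Cd8a, the alpha chain of the CD8 coreceptor, was at 1.78, 1.98, 1.48, 1.36 and 2.64 CPM in MSC replicates 0 to 4 and at 0.468, 0.590, 0.410 and 0.495 CPM in PBS replicates 0 to 3. The lowest MSC mouse was thus well above the highest PBS mouse, and the 4 PBS mice were close together. The mean was 1.85 ± 0.505 CPM (SD, n = 5) against 0.491 ± 0.0750 CPM (SD, n = 4), a log2 fold change of 1.92 with a standard error of 0.27 (edgeR, adjusted p = 0.00108). Cd8a was the only one of the 14 genes that stayed under the threshold whichever of the 9 mice was left out, and without MSC replicate 4 its log2 fold change was 1.75 (adjusted p = 0.00682).

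Cd3e and Cd3g code for the epsilon and gamma chains that carry the receptor's signal into the cell. Cd3e was at 0.518, 0.716, 0.503, 0.265 and 1.00 CPM in MSC replicates 0 to 4 and at 0.0827, 0.131, 0.0964 and 0.165 CPM in PBS replicates 0 to 3. The groups did not overlap, and the difference was 2.35 ± 0.43 on the log2 scale (SE, adjusted p = 0.00914). Cd3g was at 0.194, 0.745, 0.472, 0.265 and 0.860 CPM in the MSC mice, and at 0.0276, 0.0655, 0.0241 and 0 CPM in the PBS mice. In all, 85 reads were counted in the 5 MSC mice and 4 in the 4 PBS mice. The ratio of these totals at equal depth was 18.1, with an exact 95% interval of 6.82 to 68.0 that covers counting error only (edgeR, adjusted p = 0.00730). Without MSC replicate 4 the adjusted p was 0.0557 for Cd3e and 0.0314 for Cd3g.

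Cd8b1, the beta chain of CD8, stayed outside the threshold. It was at 0.453, 0.659, 0.534, 0.232 and 1.03 CPM in MSC mice and at 0.0827, 0, 0.217 and 0 CPM in PBS mice. The groups did not overlap, and the log2 fold change was 2.75 ± 0.63 (SE, adjusted p = 0.105), or 2.43 without MSC replicate 4 (adjusted p = 0.590). The CD4 coreceptor gene Cd4, which microglia and neurons can also express, was at 1.26 to 4.34 CPM in MSC mice and 0.917 to 3.70 CPM in PBS mice, a difference of 0.47 ± 0.66 on the log2 scale (SE, adjusted p = 0.979). Cd3d, the delta chain, was at 1.78 to 3.18 CPM against 2.10 to 2.31 CPM (log2 fold change 0.34 ± 0.17, SE, adjusted p = 0.873), and in sham mice at 1.38 to 3.09 CPM. Cd4 and Cd3d overlapped between the groups, and Cd3d overlapped with the sham mice too.

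Of the 16 genes tested in the list of T cell receptor and coreceptor genes, 3 rose (Cd8a, Cd3e and Cd3g) and 0 fell. All 16 had a positive log2 fold change, as did 8927 of all 17131 genes tested. The median was 0.85 (0.71 without MSC replicate 4), where the median over all genes tested was 0.00. An unadjusted p under 0.05 with a higher level was seen in 8 of the 16, against 4.00% of all genes tested. The mice did not overlap in 5, the 3 called genes among them, against 0.899% of all genes with every MSC mouse higher. This list and those below were compiled with earlier results of these data known. Such shares are therefore no separate evidence. The summed level of the list says little, because 93.8% to 96.5% of it was Thy1, which neurons express. Without Thy1 it was 33.8 to 45.2 TPM in MSC mice and 24.5 to 30.6 TPM in PBS mice. Of the 17 T cell signalling genes tested, Sh2d2a rose, 8 in all had an unadjusted p under 0.05, and the median was 0.39, or 0.24 without MSC replicate 4. Sh2d2a, a T cell adaptor protein that binds the kinase Lck, was at 0.388, 0.774, 0.534, 0.530 and 1.52 CPM in MSC mice and at 0.0827, 0.262, 0.241 and 0.132 CPM in PBS mice. The groups did not overlap, but MSC replicate 4 was far above the rest. The log2 fold change was 2.05 ± 0.40 (SE, adjusted p = 0.0232), and without that mouse it was 1.61 (adjusted p = 0.210). Lck itself was at 1.33 to 2.29 CPM and 1.07 to 1.49 CPM, a difference of 0.46 ± 0.17 on the log2 scale (SE, adjusted p = 0.708).

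Genes of cytotoxic lymphocytes that rose were near the limit of detection in PBS mice. Nkg7, a granule protein of natural killer and cytotoxic T cells, was at 0.420, 0.201, 0.346, 0.0331 and 0.745 CPM in MSC replicates 0 to 4. In PBS mice a single read was found, in replicate 1, and none in the other 3 mice. MSC replicate 3 also held 1 read, and these mice cannot be told apart at this depth. The totals were 58 and 1 reads, a ratio of 49.4 at equal depth with an exact 95% interval of 8.52 to 1985 (edgeR, adjusted p = 0.00914, and 0.0504 without MSC replicate 4). Ccl5, a chemokine that effector T cells make and that attracts other lymphocytes, was at 0.938, 0.745, 1.13, 0.629 and 2.89 CPM in MSC mice and at 0.138, 0.131, 0.217 and 0.231 CPM in PBS mice. These groups were far apart, by 2.80 ± 0.49 on the log2 scale (SE, adjusted p = 0.00793), or by 2.23 without MSC replicate 4 (adjusted p = 0.0468). Cxcr6, a chemokine receptor of T cells that stay in tissue, was at 0.420, 0.860, 0.723, 0.463 and 0.802 CPM in MSC mice and at 0.165, 0.229, 0.169 and 0.165 CPM in PBS mice. Here replicate 4 was not the highest mouse, and the log2 fold change was 1.84 ± 0.34 (SE, adjusted p = 0.00914) with it and 1.75 without it (adjusted p = 0.0498).

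Of the 17 cytotoxic and natural killer genes tested, Ccl5 and Nkg7 rose. In all, 12 were higher at an unadjusted p under 0.05, against 4.00% of all genes tested. The median log2 fold change was 1.16, the highest of the lymphocyte lists, and 0.84 without MSC replicate 4. The summed level of the list was 12.01 to 41.4 TPM in MSC mice, at most 18.2 TPM without replicate 4, 5.79 to 9.82 TPM in PBS mice and 4.15 to 5.42 TPM in sham mice. Members outside the threshold rested on few reads. Gzmb, the protease granzyme B, was counted 75 times in the MSC mice and 3 times in the PBS mice, a ratio of 21.3 (exact 95% interval 7.01 to 106, adjusted p = 0.146). Most of those reads came from MSC replicate 4, at 1.63 CPM, where the other 4 MSC mice were at 0.0629 to 0.258 CPM. Klrc1, which codes for the receptor NKG2A, was counted 36 and 3 times, a ratio of 10.2 (3.23 to 51.9, adjusted p = 0.186). Klrc1 did not pass the filter on low counts in every fit that left out 1 mouse.

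Gimap3 and Gimap4 are small GTPases of lymphocytes that act in the survival of T cells. Gimap3 was at 1.26, 1.89, 1.23, 0.497 and 2.69 CPM in MSC replicates 0 to 4 and at 0.248, 0.295, 0.169 and 0.198 CPM in PBS replicates 0 to 3, which is 2.74 ± 0.45 higher on the log2 scale (SE, adjusted p = 0.00475). Gimap4 was at 1.58, 1.98, 0.692, 0.695 and 3.52 CPM in MSC mice and at 0.276, 0.131, 0.337 and 0.561 CPM in PBS mice, which is 2.38 ± 0.42 higher on the log2 scale (SE, adjusted p = 0.00883). MSC replicate 4 was the highest in both, and without it both passed, at adjusted p = 0.0220 and 0.0498. Of the 8 members of this family in the file, which lie together on chromosome 6, 7 were tested and these 2 rose. Gimap5, Gimap6, Gimap8, Gimap9 and Gimap1 had log2 fold changes of 0.06 to 0.59, with adjusted p-values of 0.696 to 0.985. Of all runs of 31 bases in Gimap3 transcripts, 85.4% occurred in no other gene and 13.2% occurred in Gimap5. Some reads of Gimap3 and Gimap5 can therefore be assigned to the wrong gene. Gimap7 did not pass the filter on low counts, at 0.0993 to 0.344 CPM in MSC mice and 0 to 0.0655 CPM in PBS mice.

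Of the immunoglobulin constant genes named here, Igha rose. Igha, the constant region of IgA, was at 2.39, 1.06, 0.660, 0.993 and 1.03 CPM in MSC mice and at 0.0551, 0.0655, 0 and 0.528 CPM in PBS mice. The highest MSC mouse was replicate 0, not replicate 4, and PBS replicate 3 lay just under the lowest MSC mouse. The log2 fold change was 3.01 ± 0.58 (SE, adjusted p = 0.0202), and 3.06 without MSC replicate 4 (adjusted p = 0.0468). Igkc, the constant region of kappa light chains, was at 1.46, 2.32, 0.786, 0.960 and 1.00 CPM against 0.0827, 0.0328, 0.265 and 0.561 CPM (log2 fold change 2.48 ± 0.61, SE, adjusted p = 0.179). Ighg2b was counted 82 and 7 times in all (adjusted p = 0.0687). It did not pass the filter on low counts in every fit that left out 1 mouse, so its place among the tested genes depended on single mice. Ighm, the constant region of IgM, was at 10.5 to 17.6 CPM in MSC mice, 11.8 to 17.7 CPM in PBS mice and 12.1 to 19.0 CPM in sham mice, with no difference past the test (log2 fold change 0.07 ± 0.18, SE, adjusted p = 0.993). Cd79a, part of the B cell receptor, was at 0.265 to 0.544 CPM and 0.0990 to 0.358 CPM (adjusted p = 0.764). Of the 14 B and plasma cell genes tested, 1 rose, Igha, and the median log2 fold change was 0.37, or 0.17 without MSC replicate 4.

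The variable segments of the receptors, which are joined anew in each lymphocyte, were summed over each family, a description made after the counts had been seen. Over 70 immunoglobulin heavy chain segments, 37, 57, 8, 28 and 38 reads were counted in MSC replicates 0 to 4 and 3, 0, 0 and 6 in PBS replicates 0 to 3. Over 80 kappa segments the sums were 48, 103, 32, 37 and 41 against 14, 15, 7 and 24. T cell receptor beta segments, of which the file lists 19, had 8, 11, 10, 7 and 18 reads against 0, 2, 2 and 2. In these 3 families every MSC mouse held more reads than every PBS mouse. The sham mice had 1 to 6, 5 to 12 and 1 to 2 reads in the same families. The 89 alpha segments did not separate the groups, with 23 to 62 reads in MSC mice, 19 to 67 in PBS mice and 20 to 56 in sham mice. None of the heavy, kappa or beta segments passed the filter on low counts by itself. IL-4 MSC mice at 3 wpi held 2 to 28 heavy chain, 8 to 74 kappa and 7 to 14 beta segment reads, so that the beta segments alone lay above all PBS mice.

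**Figure D2:**
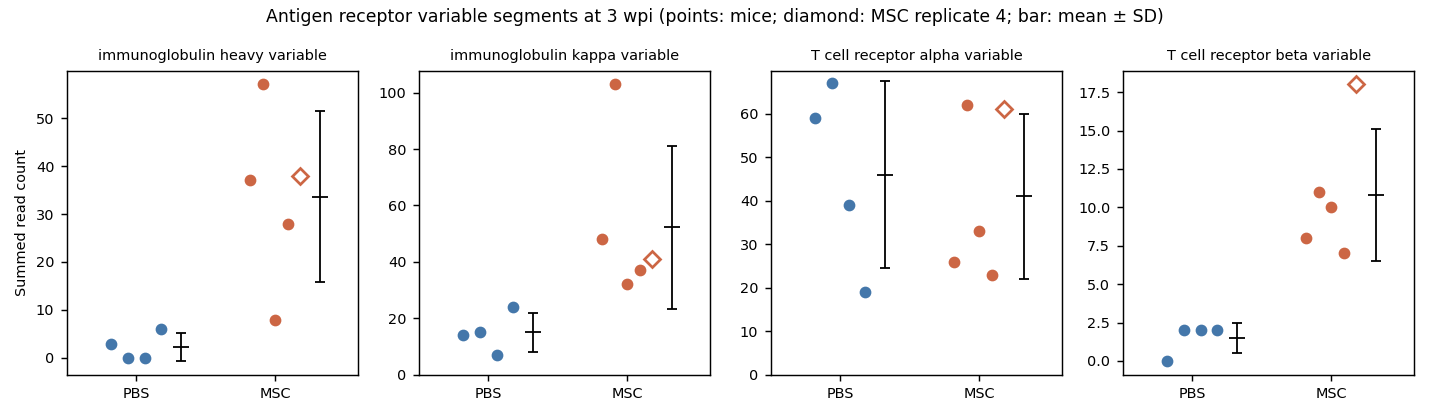
Reads summed over the variable segments of 4 antigen receptor families (vertical axes, read counts, linear) in each PBS mouse (4, blue) and MSC mouse (5, orange) at 3 wpi, with mean ± SD and MSC replicate 4 as an open diamond. MSC mice lie above PBS mice for heavy chain, kappa and beta segments, and both groups cover the same range for alpha segments.

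Of the MHC class I heavy chains, 3 rose, and each was higher in all 5 MSC mice than in any PBS mouse. H2-D1, a classical class I heavy chain present in most tissues, was at 79.5, 70.7, 68.5, 82.9 and 153 CPM in MSC replicates 0 to 4 and at 41.6, 40.5, 48.0 and 55.6 CPM in PBS replicates 0 to 3. Its log2 fold change was 0.97 ± 0.17 (SE, adjusted p = 0.00793), and 0.70 without MSC replicate 4 (adjusted p = 0.0180). H2-Q7, a non-classical class I molecule of the Qa-2 family, was at 3.17, 2.87, 2.55, 3.21 and 9.11 CPM in MSC mice and at 0.579, 0.590, 0.675 and 1.65 CPM in PBS mice. Replicate 4 of the MSC mice was far above its group, and replicate 3 of the PBS mice was the highest of its own. The log2 fold change was 2.29 ± 0.37 (SE, adjusted p = 0.00475), and 1.78 without MSC replicate 4 (adjusted p = 0.0154). H2-Q6, its neighbour in the same family, was at 4.37, 3.52, 3.99, 4.14 and 9.74 CPM in MSC mice and at 1.49, 1.67, 1.90 and 2.18 CPM in PBS mice, which is 1.51 ± 0.30 higher on the log2 scale (SE, adjusted p = 0.0243). For H2-Q6 the call was lost without replicate 4, at a log2 fold change of 1.14 (adjusted p = 0.212), although the other 4 mice all lay above the PBS mice.

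These genes lie in the MHC on chromosome 17 (GRCm38, GENCODE M21): H2-D1 at chr17:35262730-35267499, H2-Q6 at chr17:35424850-35430055 and H2-Q7 at chr17:35439155-35443773, all protein-coding and on the plus strand. They resemble each other, so that reads can be assigned to the wrong member. Of all runs of 31 bases in their transcripts, 73.3% of those of H2-D1, 60.9% of those of H2-Q7 and 49.7% of those of H2-Q6 occurred in no other gene, against 99.1% for Cd8a. The split of reads between these genes is therefore uncertain.

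The promoters of class I genes carry an element that binds NF-kappaB, one that binds interferon regulatory factors, and CCAAT boxes. Their sequences (RefSeq, GRCm38.p6) are shown for the 3 genes that rose and for the 2 class I heavy chains nearest to the threshold, to show how alike the starts of these genes are. Each runs 5′ to 3′ on the strand of the gene, and capitals mark matches on either strand to GGGATTNCC (kappaB), TTTCNNTTC (interferon response) and ATTGG, which on the opposite strand reads as a CCAAT box, patterns chosen after the sequences had been read. Positions follow the RefSeq start of each gene, which for H2-D1 lies within the GENCODE gene.
H2-Q7, chr17:35439013-35439153, plus strand: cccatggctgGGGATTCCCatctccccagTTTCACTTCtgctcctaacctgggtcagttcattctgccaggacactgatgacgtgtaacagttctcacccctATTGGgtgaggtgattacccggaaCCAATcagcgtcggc
H2-Q6, chr17:35424668-35424809, plus strand: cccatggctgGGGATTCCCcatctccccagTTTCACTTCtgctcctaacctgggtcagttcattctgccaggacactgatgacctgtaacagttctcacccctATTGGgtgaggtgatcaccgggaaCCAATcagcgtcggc
H2-D1, chr17:35262914-35263055, plus strand: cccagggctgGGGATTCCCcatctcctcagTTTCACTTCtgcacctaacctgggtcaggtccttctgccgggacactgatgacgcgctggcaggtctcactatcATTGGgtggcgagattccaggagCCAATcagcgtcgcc
H2-Q4, chr17:35379434-35379576, plus strand: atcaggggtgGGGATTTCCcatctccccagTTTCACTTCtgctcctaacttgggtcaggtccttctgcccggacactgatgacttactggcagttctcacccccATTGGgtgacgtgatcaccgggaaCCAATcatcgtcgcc
H2-K1, chr17:34000325-34000467, minus strand: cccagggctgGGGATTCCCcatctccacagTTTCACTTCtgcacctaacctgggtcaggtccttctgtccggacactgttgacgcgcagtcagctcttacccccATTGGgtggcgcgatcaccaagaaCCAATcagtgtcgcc

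Each of these 5 promoters held 1 kappaB match, 1 interferon response match and 2 CCAAT boxes. Among all 32851 promoter windows of 300 bases, 0.938% held the kappaB letters, 7.52% the interferon response letters and 37.4% a CCAAT box, and 16 windows (0.0487%) held all 3. In the windows of Cd8a, Gimap3, Cd3g, Gimap4, Nkg7, Cd3e and Cxcr6 there was no kappaB match, Cd8a had 2 interferon response matches and Nkg7 had 1 CCAAT box. The window of the class I light chain B2m held 1 CCAAT box and no kappaB or interferon response match. Ccl5, Igha, Sh2d2a and Cd74 had no window to scan. Such matches describe the letters of the window only.

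Of the 25 class I presentation genes tested, 3 rose, 0 fell and 21 had a positive log2 fold change, as did 8927 of all 17131 genes tested. The median was 0.19 (0.13 without MSC replicate 4). The mice did not overlap in 8 of the 25, the 3 called genes among them, against 0.899% of all genes tested with every MSC mouse higher. Just outside the threshold were H2-Q4 (0.58 ± 0.12, adjusted p = 0.0585), H2-K1 (0.91 ± 0.20, adjusted p = 0.0687), the class I activator Nlrc5 (1.19 ± 0.26, adjusted p = 0.0687) and B2m, the light chain (0.66 ± 0.15, adjusted p = 0.0695), all as log2 fold changes ± SE. B2m was at 80.2, 74.2, 73.6, 87.4 and 139 CPM in MSC mice and at 54.5, 54.1, 55.3 and 67.2 CPM in PBS mice. None of the 4 passed without MSC replicate 4, where their adjusted p-values were 0.415 to 0.551, and in all 4 every MSC mouse was above every PBS mouse. Tap1, the peptide transporter, was at 4.21 to 7.68 CPM against 3.21 to 4.22 CPM (adjusted p = 0.639). Per transcript length the heavy chains differed widely in level, with means in MSC and PBS mice of 110 and 55.8 TPM for H2-D1, and 7.59 and 1.71 TPM for H2-Q7.

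Of the class II presentation genes Cd74 rose. It was at 13.9, 19.2, 10.7, 14.6 and 69.2 CPM in MSC replicates 0 to 4 and at 5.79, 3.73, 4.92 and 8.58 CPM in PBS replicates 0 to 3. The groups did not overlap, but replicate 4 held several times the level of any other mouse. The log2 fold change was 2.16 ± 0.44 (SE, adjusted p = 0.0311), and 1.35 without that mouse (adjusted p = 0.324). The class II chains moved beside it without passing. H2-Ab1 was at 4.75, 7.54, 4.12, 5.86 and 17.5 CPM against 2.15, 1.15, 1.81 and 3.47 CPM (log2 fold change 1.90 ± 0.40, SE, adjusted p = 0.0548). H2-Aa was at 4.15 to 22.2 CPM against 1.38 to 4.29 CPM (adjusted p = 0.158), and H2-Eb1 at 3.58 to 17.4 CPM against 1.38 to 3.27 CPM (adjusted p = 0.190). Without MSC replicate 4 the log2 fold changes were 1.38 for H2-Ab1 (adjusted p = 0.478), 1.12 for H2-Aa and 0.92 for H2-Eb1 (both 0.996). Ciita, the regulator that switches class II genes on, was at 2.45 to 4.87 CPM and 2.89 to 3.41 CPM, a difference of 0.23 ± 0.19 on the log2 scale (SE, adjusted p = 0.963). Of the 15 class II presentation genes tested, 1 rose and 7 were higher at an unadjusted p under 0.05, against 4.00% of all genes tested. The median was 0.47, or 0.24 without MSC replicate 4. Their summed level was 243 to 284 TPM in MSC mice without replicate 4, 565 TPM in replicate 4 and 183 to 235 TPM in PBS mice.

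The lists around these genes had positive medians, below the log2 fold changes of the 14 genes. Over all genes tested the median was 0.00, and 4.00% were higher and 1.72% lower at an unadjusted p under 0.05. Of the 24 genes tested that interferon-gamma induces, 0 passed, 10 were higher and 0 lower at an unadjusted p under 0.05, and the median log2 fold change was 0.28 (0.24 without MSC replicate 4). The chemokine Cxcl9 was at 0.126 to 1.38 CPM against 0.0827 to 0.264 CPM (adjusted p = 0.462), and Cxcl10 at 0.314 to 1.29 CPM against 0.165 to 0.675 CPM (adjusted p = 0.865). Of the 35 type I interferon-stimulated genes, 0 passed and 12 were higher at an unadjusted p under 0.05, with a median of 0.30 (0.23 without that mouse). Of the 20 lymphocyte-attracting chemokines and receptors, Ccl5 and Cxcr6 rose and the median was 0.52, or 0.31 without it. Cxcr3, the receptor of Cxcl9 and Cxcl10, was counted 47 and 8 times (adjusted p = 0.313). In the 13 genes of lymphocyte adhesion none passed, 8 were higher at an unadjusted p under 0.05 and the median was 0.70, but without MSC replicate 4 the median was 0.15. Itgae, the integrin of tissue-resident CD8 cells, was at 0.430 to 1.52 CPM against 0.241 to 0.462 CPM (adjusted p = 0.190).

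Lists of other cells of the immune system and of the brain had no gene past the threshold. Of the 17 complement genes, 10 were higher at an unadjusted p under 0.05, against 4.00% of all genes tested. All 17 were positive, as were 8927 of all 17131 genes tested, with a median of 0.37 that was 0.10 without MSC replicate 4. C4b was at 86.3 to 182 CPM in MSC mice and 52.2 to 99.7 CPM in PBS mice (adjusted p = 0.440). The medians were 0.30 for 30 monocyte and macrophage genes, 0.24 for 25 genes of reactive astrocytes and 0.23 for 18 dendritic cell genes, and 0.05, 0.02 and 0.09 without MSC replicate 4. Gfap, the intermediate filament of reactive astrocytes, was at 335 to 625 CPM against 284 to 459 CPM (log2 fold change 0.25 ± 0.19, SE, adjusted p = 0.943). Microglial genes had medians of 0.11 (18 homeostatic genes) and 0.07 (21 activation genes), close to the 0.00 of all genes. T helper and regulatory T cell genes had a median of 0.22 over 14 genes, and T cell checkpoint genes one of 0.32 over 17, with 0 called in both. Without MSC replicate 4 these medians were 0.12 and 0.22.

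Genes of the injected cell type had no call at 3 wpi. The 27 mesenchymal and fibroblast genes had a median log2 fold change of 0.05 and none at an unadjusted p under 0.05, where at 1 wpi the median was 0.35 and 16 of the 27 were higher at an unadjusted p under 0.05 (2.49% of all genes). Of 13 tested genes that pattern the trunk and limbs of the embryo (11 Hox genes, Tbx5 and Pitx1), 4 had no count in a group, so that no median is read, and 0 were higher at an unadjusted p under 0.05 at 3 wpi and 7 at 1 wpi. The medians of 18 neuronal, 18 oligodendrocyte, 12 cortical and 13 hippocampal genes lay between -0.02 and 0.04. The 25 proliferation genes had a median of -0.05. Markers of regions next to the sample had medians of 0.29 for 13 striatal genes and 0.30 for 12 genes of the choroid plexus and ependyma, and none of these at an unadjusted p under 0.05. The summed level of the choroid plexus and ependyma list was 195 TPM in PBS replicate 1. It was 1461 to 2478 TPM in the other PBS mice and 1169 to 3003 TPM in MSC mice. PBS replicate 1 also had the lowest summed oligodendrocyte level of these mice, at 4926 TPM, and the lowest striatal level, at 276 TPM. The part of the tissue sampled in the results was not tested. The 6 blood cell genes tested, which show how much blood the tissue held, had a median of 1.22. Their leading gene, the beta-globin Hbb-bs, was at 13.1 ± 11.1 CPM in MSC mice (SD, n = 5) and at 5.48 ± 5.26 CPM in PBS mice (SD, n = 4). These levels overlapped between the groups. The part of blood in the immunoglobulin and T cell genes was not tested.

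**Figure D3:**
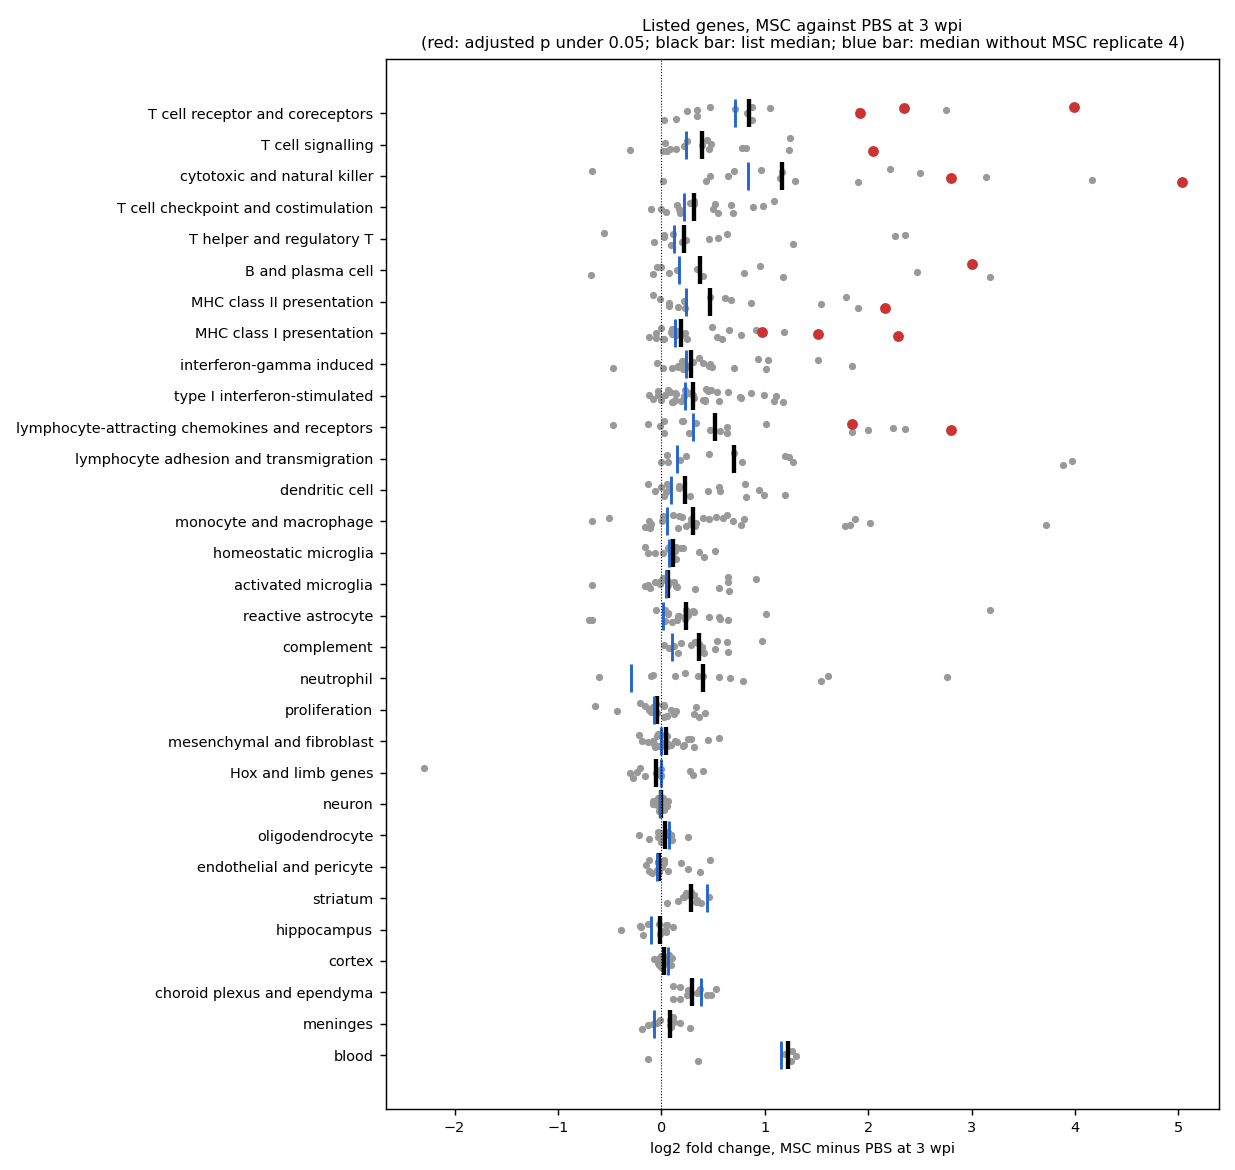
Log2 fold change, MSC minus PBS at 3 wpi (horizontal axis), of every tested gene in 31 lists (rows), with genes past an adjusted p of 0.05 in red, the median of each list as a black bar and the median without MSC replicate 4 as a blue bar. The red points lie in lists of T cell, cytotoxic, B and plasma cell, chemokine and MHC genes, the medians of the neuron and oligodendrocyte lists lie near 0, and the blue bar of the neutrophil list lies at -0.29 where its black bar lies at 0.40.

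The same genes were then followed across the other groups. At 1 wpi, 2 days after the injection, the levels of MSC and PBS mice overlapped in Cd8a. It was at 0.386 to 0.691 CPM in PBS mice and 0.480 to 0.698 CPM in MSC mice at 1 wpi, and at 0.268 to 0.401 CPM in sham mice. Ccl5 was at 0.457 to 0.942 CPM and 0.747 to 1.85 CPM at 1 wpi, and at 0 to 0.148 CPM in sham mice, so that all mice of both injured groups lay above all sham mice. H2-D1 was at 63.5 to 80.9 CPM in PBS mice and 77.7 to 92.1 CPM in MSC mice at 1 wpi, and at 36.1 to 43.3 CPM in sham mice. At 3 wpi the MSC mice other than replicate 4 were at 68.5 to 82.9 CPM and the PBS mice at 40.5 to 55.6 CPM, below all PBS mice of 1 wpi.

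None of the 14 genes passed the test between MSC and PBS mice at 1 wpi (adjusted p of 0.994 to 0.999), where 21 genes did (0.123% of those tested). The change of the difference from 1 to 3 wpi was tested directly. It passed in 0 of the 17131 genes in edgeR, with 572 at an unadjusted p under 0.05 (3.34%). Among the 14, the lowest adjusted p was that of H2-Q7 (change of 2.16 ± 0.49 on the log2 scale, SE, adjusted p = 0.311), followed by Cd8a (1.67 ± 0.39, adjusted p = 0.372). The larger differences at 3 wpi are therefore not shown to differ from those at 1 wpi.

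Against the sham mice of both time points, all 14 genes were higher in MSC mice at 3 wpi, in a comparison that called 191 genes higher (1.11%) and that uses the same MSC mice. The log2 fold change over sham was 1.24 for H2-D1, 2.46 for Cd8a and 2.89 for H2-Q7. None of the 14 passed the test between PBS mice at 3 wpi and sham mice, where 4 genes in all were higher (0.0233%) and 1 lower (0.00584%). Gfap (log2 fold change 1.03, adjusted p = 0.0273) and Itgax (2.38, adjusted p = 0.0413), a marker of dendritic cells and activated microglia, did. The 14 were picked for lower levels in these same PBS mice, so their lack of a call against sham is no separate evidence. Itgax was at 0.590 to 2.48 CPM in PBS mice, 1.58 to 3.27 CPM in MSC mice and 0.134 to 0.525 CPM in sham mice, so that both injured groups lay above sham, and MSC and PBS mice differed by 0.55 ± 0.37 on the log2 scale (SE, adjusted p = 0.913).

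Mice given IL-4 MSCs were compared with the same MSC mice. Between these 2 groups 392 genes were higher in IL-4 MSCs (2.29%) and 202 lower (1.18%), and among the 14 only Sh2d2a was in either set. Against the same PBS mice, IL-4 MSC mice were higher in 11 of the 14, all but Sh2d2a, Gimap4 and Igha, where 2.17% of all genes were called higher. The 14 were picked for lower levels in these same PBS mice, so this count is no separate evidence. Sh2d2a was at 0.163 to 0.474 CPM in IL-4 MSC mice and 0.388 to 1.52 CPM in MSC mice, a difference of -1.26 ± 0.34 on the log2 scale (SE, adjusted p = 0.0353). Cd8a was at 0.955 to 2.05 CPM in IL-4 MSC mice, above all PBS mice, and differed from MSC mice by -0.25 ± 0.22 (SE, adjusted p = 0.616). H2-D1 was at 56.1 to 97.3 CPM, a difference of -0.13 ± 0.15 (SE, adjusted p = 0.720). Igha was at 0.273 to 0.759 CPM, a difference of -1.25 ± 0.45 (SE, adjusted p = 0.115). Cd4 and Ighm, which did not pass the test between MSC and PBS mice, were higher in IL-4 MSC than in MSC mice, by 2.34 ± 0.58 (SE, adjusted p = 0.0203) and 0.62 ± 0.16 (SE, adjusted p = 0.0316). Striatal markers moved with them between these groups, with 11 of the 13 higher in IL-4 MSC mice and a median log2 difference of 1.79. In IL-4 MSC replicates 0 to 4, Cd4 was at 11.4, 1.74, 12.4, 19.4 and 15.4 CPM and Drd2, the striatal dopamine receptor D2, at 41.9, 6.54, 38.4, 72.2 and 48.9 CPM. Replicate 1 was the lowest in both and in Ighm, and the part of the region sampled in these differences was not tested. Il4 itself was at 0.0629 to 0.199 CPM in MSC mice and 0.165 to 0.217 CPM in PBS mice and did not pass the filter.

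**Figure D4:**
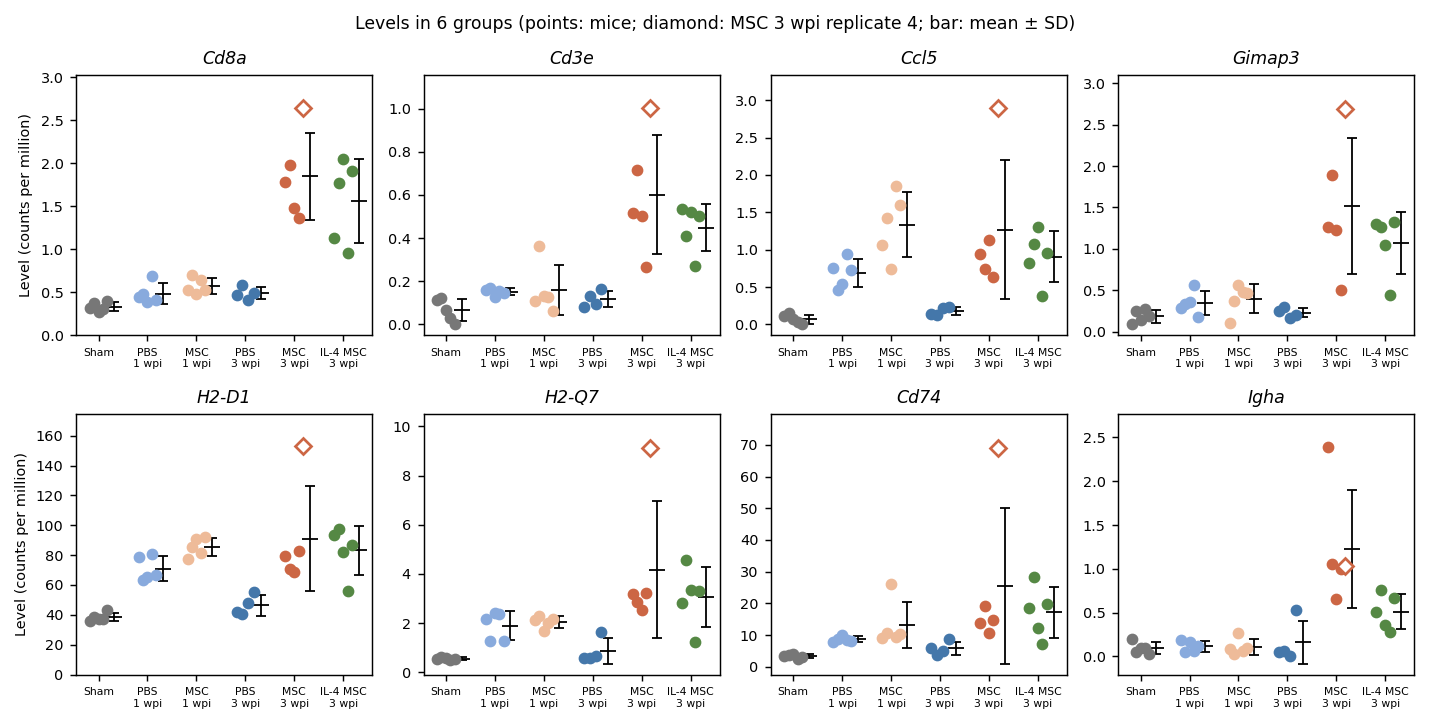
Level in CPM (vertical axes, linear) of 8 of the 14 genes in every mouse of 6 groups (horizontal axis: sham, PBS and MSC at 1 wpi, PBS, MSC and IL-4 MSC at 3 wpi), with mean ± SD and MSC replicate 4 at 3 wpi as an open diamond. The means of Cd8a, Cd3e, Gimap3 and Igha are low in sham mice and in both groups at 1 wpi, whereas H2-D1, H2-Q7, Cd74 and Ccl5 were above sham in both groups at 1 wpi and have lower means in PBS mice at 3 wpi.

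How far the 14 calls depend on single mice differed by gene. Leaving out 1 of the 9 mice at a time gave between 1 and 28 higher genes and 0 lower genes each time. The 1 gene left without PBS replicate 0 or without PBS replicate 2 was Cd8a, and 6 were left without PBS replicate 1. Without MSC replicate 2, 28 were called, among them all 14 and also H2-Ab1, H2-Aa, H2-K1, H2-Q4, B2m, Nlrc5 and Gzmb. The log2 fold changes moved less than the calls, for Cd8a between 1.75 and 2.01 and for H2-D1 between 0.70 and 1.07, and all 14 were positive each time.

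**Figure D5:**
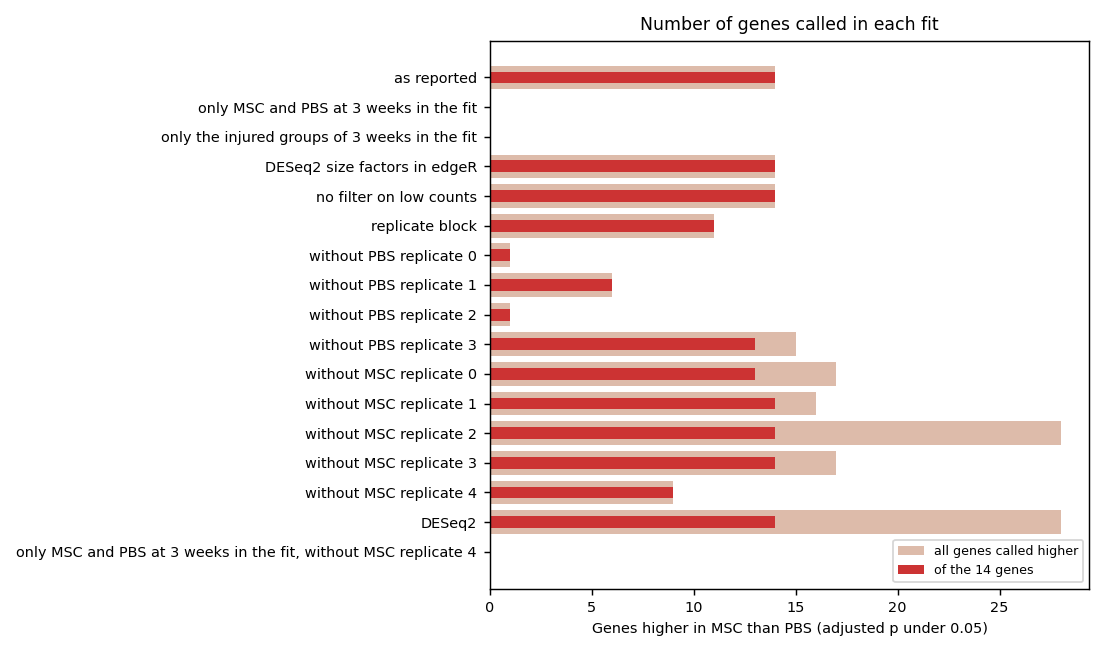
Number of genes higher in MSC than in PBS mice at 3 wpi at an adjusted p under 0.05 (horizontal axis) in each fit (rows), with the number that belong to the 14 genes as the narrow red bars. The count is 14 as reported, 0 in the fits that use fewer groups and 1 to 28 when 1 mouse is left out.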

How the data were processed

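Paired-end RNA-seq libraries of 35 mice were made, and 1 PBS library at 3 wpi, excluded by the authors, has no counts. Per the submitters' processing notes the authors used cutadapt 2.4, kallisto 0.46 and sleuth 0.30. They assigned reads to protein-coding transcripts and deposited estimated counts and TPM per gene. Columns with p-values, q-values and fold changes of the authors' own comparisons were not used.

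Estimated counts were rounded and fitted in edgeR 4.0.16 (R 4.3.3, TMM, filterByExpr, quasi-likelihood, two-sided), with 34 libraries in 7 groups and no replicate block. 17131 of 21203 genes passed the filter. CPM used TMM library sizes. DESeq2 1.42.0, other scaling, no filter, fewer groups and leaving out each mouse were alternatives. Positions came from GENCODE M21. The procedure was tested on simulated data.

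Members and the 31 gene lists were chosen with earlier results of these data known. Genes named were the called genes, in each list up to 4 others of lowest p, and a set fixed by name. Promoter patterns, variable segments, Gimap members and a few genes (Cd8b1, Ighg2b, Klrc1, H2-Q4, Cxcr3, Itgae, Sele, Lcn2, C4b and Hbb-bs) were chosen after values were seen.

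Replicates were separate mice, and no 2 libraries of a group agreed within sampling noise. Same-numbered MSC and PBS mice did not deviate together. The sample titles carry a number that all MSC mice of 3 wpi share and another that all PBS mice of 3 wpi share, so that what it stands for cannot be told apart from the treatment. Intervals cover counting error only. Results for some named genes are not reported here.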

Additional observations from a re-analysis of the deposited data

Results flagged for a closer look

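Levels of 49 named genes were examined in both groups, 98 sets of mice, for a mouse whose gap to the next exceeded Dixon's 95% critical value, which chance passes in about 1 of 20 groups. It was passed 14 times, 9 in MSC and 5 in PBS mice, and 8 of the 9 were MSC replicate 4 as the highest mouse. Sele and Lcn2, which are among these 8, were chosen after values were seen. The class I heavy chains share sequence and are not independent. The count can therefore not be weighed against the rate of 1 in 20.

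On the log2 CPM scale MSC replicate 4 was at 3.2 for H2-Q7 where the next mouse was at 1.71, at 7.26 for H2-D1 (next 6.37) and at 3.29 for H2-Q6 (next 2.15). It was at 6.37 for H2-K1 (next 5.36), at 7.12 for B2m (next 6.45) and at 2.95 for Tap1 (next 2.24). For Sele it was at 1.79 (next -3.02) and for Lcn2 at 6.7 (next 0.05). The 9th value was a low one, Cd3d in MSC replicate 0 at 0.88 (next 1.58).

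Among PBS mice, replicate 3 was high for H2-Q7 at 0.77 (next -0.45) and for B2m at 6.07 (next 5.79). Replicate 1 was high for Nkg7 at -3.45, where it held the only read of its group, high for Cxcr6 at -1.79 (next -2.14) and low for Cd2 at -3.45 (next -2.69).

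In 3 genes the IL-4 MSC mice differed from the MSC mice in the test of that difference. The log2 fold change, IL-4 MSC minus MSC, was -1.26 for Sh2d2a (edgeR, adjusted p = 0.0353), 2.34 for Cd4 (0.0203) and 0.62 for Ighm (0.0316). Between the same groups 11 of 13 striatal markers were higher in IL-4 MSC mice, with a median of 1.79, and IL-4 MSC replicate 1, the lowest of its group in Drd2 at 6.54 CPM, was also the lowest in Cd4 at 1.74 CPM and in Ighm at 13.7 CPM. The part of the region sampled was not tested.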

How the results depend on the processing

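The number of genes called higher was 14 as reported. It was 0 with only MSC and PBS mice of 3 wpi in the fit, 0 with only the injured groups of 3 wpi, and 28 in DESeq2. It was also 0 with only MSC and PBS mice without MSC replicate 4 (314 higher and 239 lower at an unadjusted p under 0.05), a fit chosen after seeing the data. Leaving out 1 mouse gave 1 to 28, with 1 without PBS replicate 0 or 2, 6 without PBS replicate 1, 28 without MSC replicate 2 and 9 without MSC replicate 4. Among listed genes 12 were called as reported, 0 in each of the 3 smaller fits, 23 in DESeq2 and 1 to 23 with 1 mouse left out. Other size factors and no filter gave 14 each, and 0 genes were lower in any of these fits. The part of a shared spread and of fewer mice in these counts was not tested.

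With the replicate number as a block, 11 genes were called, without Cd74, Sh2d2a and H2-Q6. Same-numbered mice correlated at -0.11 to 0.21 over 4 pairs and 1 correlated best with its own number, so the numbers were not taken as pairs.

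List medians moved as follows. With only MSC and PBS mice in the fit that of cytotoxic genes was 0.69 and that of Hox and limb genes 0.071. Without MSC replicate 4 in that fit the medians were 0.41 for T cell receptor, 0.60 for cytotoxic, 0.15 for chemokine, 0.15 for adhesion, 0.075 for dendritic cell, -0.29 for neutrophil and 0.11 for Hox and limb genes. With only the injured groups of 3 wpi it was -0.16 for Hox and limb genes, 4 of which had no count in a group, so that their median depends on the prior count. Without the filter the medians were 0.50 for checkpoint and 0.87 for B cell genes, and in DESeq2 0.51 and 0.88. Leaving out 1 mouse gave 0.22 to 0.46 for checkpoint, 0.15 to 0.83 for adhesion, 0.090 to 0.33 for dendritic cell, -0.29 to 0.58 for neutrophil and -0.18 to 0 for Hox and limb genes. Of 2185 values of named genes over these fits 2170 kept their sign, and no called value reversed. Depth limits Nkg7, Cd3g, Gzmb and Klrc1, which had 1 to 4 reads in all PBS mice.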
